A study of Homo sapiens with 8 samples.

Results

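The genes described here encode the constitutive proteasome of human lung cancer cells, together with its assembly chaperones, its activators and its inhibitor. They were chosen by name: protein-coding genes whose symbol is PSM, a letter from A to G and a number, without the interferon-inducible PSMB8, PSMB9, PSMB10, PSME1 and PSME2. The rule found 43 genes, the same 43 in both lines, of 46427 genes listed for NCI-H1944 and 61271 listed for NCI-H647. By role they fell into 8 alpha and 8 beta subunits of the core particle, 6 ATPases and 3 other subunits of the base, 8 subunits of the lid, 3 chaperones of the base, 4 chaperones of the core, and 3 activators or inhibitors. ADRM1 and SEM1, a ubiquitin receptor and a small subunit of the regulatory particle, and POMP, a chaperone of the core, carry other names and were followed apart.

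The proteasome is the protease that degrades proteins tagged with ubiquitin. Its core particle is a barrel of stacked alpha and beta rings whose active sites lie inside, on PSMB5, PSMB6 and PSMB7. The regulatory particle caps the barrel: its lid and base bind and strip ubiquitin chains, and a ring of ATPases in the base unfolds the substrate and feeds it into the core. Dedicated chaperones build both particles and leave before they are mature. In cells exposed to interferon, PSMB9, PSMB10 and PSMB8 can take the places of PSMB6, PSMB7 and PSMB5.

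The cells were NCI-H1944 and NCI-H647, lung cancer lines in long-standing use and of wild-type genotype by the labels, and each of 4 groups gave 2 RNA-seq libraries. The MPS1i groups received BAY-1217389 at 100 nM for 48 hours, were freed of the drug and grew for another 24 hours. The drug inhibits the kinase MPS1, which holds cells in mitosis until chromosomes are attached to the spindle. The DMSO groups went through the same schedule with the vehicle, and the study asked how expression was altered after such a pulse. RNA of NCI-H1944 was selected for poly(A), and RNA of NCI-H647 was depleted of ribosomal RNA, so that line, kit and count table cannot be told apart. No label states that the replicates were grown as separate cultures, and the p-values therefore reflect the spread among these libraries only, some or all of which may be technical.

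The libraries of NCI-H1944 held 43661342 and 43067647 counts after MPS1i, against 39332931 and 38904473 after DMSO. Those of NCI-H647 held 13563037 and 13358514 after MPS1i, against 19550859 and 17243487 after DMSO. The members took 0.481% and 0.480% of counts in MPS1i libraries and 0.465% and 0.465% in DMSO libraries of NCI-H1944. In NCI-H647 the shares were 0.565% and 0.567% after MPS1i, against 0.542% and 0.536% after DMSO. Epithelial markers had a summed level of 4789 and 4949 CPM (counts scaled to library size with TMM factors) after MPS1i and 4126 and 4133 after DMSO in NCI-H1944, where 5 of 6 were detected and KRT19 was at 0. In NCI-H647 all 6 had counts, but CDH1 had at most 9 in a library and did not pass the filter on low counts. The sum was 639 and 634 CPM after MPS1i, against 895 and 874 after DMSO. The 5 leukocyte markers summed to 2.02 and 2.92 CPM after MPS1i and 1.47 and 1.74 after DMSO in NCI-H1944, with PTPRC at 0, and to 2.46 and 2.50 CPM after MPS1i and 0.99 and 1.00 after DMSO in NCI-H647. The 5 fibroblast and endothelial markers summed to 28.6 and 29.7 CPM after MPS1i and 20.9 and 19.5 after DMSO in NCI-H1944, with COL1A2 at 0, and to 27.2 and 27.7 CPM after MPS1i and 32.3 and 36.7 after DMSO in NCI-H647. Lung lineage markers summed to at most 5.23 CPM in any library, with NKX2-1, SFTPB and KRT5 at 0 in NCI-H1944 and KRT5 at 0 in NCI-H647. The part of these markers in the results was not tested.

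Proteasome genes are known to share promoter elements, among them the antioxidant-type element read by NFE2L1 and the CCAAT box read by NF-Y. The 250 bases before the annotated start are shown for 6 members picked with their values known: PSMA3 and PSMA6, with the largest rises in NCI-H1944, PSMC4 and PSMD3, which rose in NCI-H647, and PSMG1 and PSMD5, with the largest falls there. The windows come from RefSeq on GRCh38.p14 and are written 5′ to 3′ along the gene. Capitals mark a match to TGACNNNGC or CCAAT on either strand, so that a CCAAT on the opposite strand appears as ATTGG.
PSMA3 (chr14:58244593-58244842, plus strand): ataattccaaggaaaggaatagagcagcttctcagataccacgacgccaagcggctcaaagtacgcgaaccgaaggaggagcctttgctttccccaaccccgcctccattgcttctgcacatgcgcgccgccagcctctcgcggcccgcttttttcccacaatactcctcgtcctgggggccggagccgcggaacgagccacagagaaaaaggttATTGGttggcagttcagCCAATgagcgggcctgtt
PSMA6 (chr14:35292067-35292316, plus strand): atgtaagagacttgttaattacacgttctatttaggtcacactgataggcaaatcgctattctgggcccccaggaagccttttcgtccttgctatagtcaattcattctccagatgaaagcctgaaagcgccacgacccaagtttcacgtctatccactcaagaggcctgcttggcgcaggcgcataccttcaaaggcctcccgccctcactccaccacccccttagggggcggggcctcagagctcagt
PSMC4 (chr19:39970915-39971164, plus strand): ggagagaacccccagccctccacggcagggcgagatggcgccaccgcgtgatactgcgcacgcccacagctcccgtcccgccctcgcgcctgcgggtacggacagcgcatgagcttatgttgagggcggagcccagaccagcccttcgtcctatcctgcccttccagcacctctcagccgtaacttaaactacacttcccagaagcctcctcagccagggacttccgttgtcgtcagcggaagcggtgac
PSMD3 (chr17:39980557-39980806, plus strand): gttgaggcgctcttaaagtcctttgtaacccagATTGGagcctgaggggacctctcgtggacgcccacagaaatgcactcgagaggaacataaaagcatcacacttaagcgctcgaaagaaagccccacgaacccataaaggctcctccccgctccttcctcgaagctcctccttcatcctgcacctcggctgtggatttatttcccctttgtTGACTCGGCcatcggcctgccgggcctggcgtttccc
PSMG1 (chr21:39183452-39183701, minus strand): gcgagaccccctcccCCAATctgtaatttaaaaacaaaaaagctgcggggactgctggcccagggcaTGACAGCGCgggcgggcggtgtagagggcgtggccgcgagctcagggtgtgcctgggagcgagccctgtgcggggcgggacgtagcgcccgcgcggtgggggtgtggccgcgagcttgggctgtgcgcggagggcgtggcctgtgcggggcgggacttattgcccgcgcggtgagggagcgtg
PSMD5 (chr9:120842923-120843172, minus strand): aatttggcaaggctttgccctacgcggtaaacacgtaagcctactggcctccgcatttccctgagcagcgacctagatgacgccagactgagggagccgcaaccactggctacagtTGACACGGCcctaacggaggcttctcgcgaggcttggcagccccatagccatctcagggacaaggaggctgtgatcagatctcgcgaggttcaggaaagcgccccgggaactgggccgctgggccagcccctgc

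The PSMA3 window held a pair of CCAAT matches within the last 35 bases before the start, 1 on each strand. PSMD3 and PSMG1 each held 1 match to each motif, PSMD5 held 1 TGACNNNGC match, and the PSMA6 and PSMC4 windows held neither sequence. No matches overlapped. RefSeq windows were matched for 37 of the 43 members. TGACNNNGC was found in 10 of the 37 (27.0%) and in 13.2% of all 27305 genes with windows of the same length. CCAAT was found in 18 of the 37 (48.6%) and in 37.0% of all these genes. A gene with several annotated starts counted if any of its windows held a match. PSMA6 had 2 such starts, of which the more upstream is shown. A match here describes letters in a window and not a site of binding.

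In NCI-H1944, 8 of the 14 tested subunits of the core particle rose after MPS1i, with a median log2 fold change of 0.13 over the 14. PSMA3 and PSMA6, both of the alpha ring, rose by 29.8% and 26.4%. The regulatory particle had 3 of 17 subunits higher, and of the 7 chaperones PSMG2 and PSMG3 were lower. These are bulk libraries, in which fewer cells of a kind and less RNA per cell cannot be told apart. Over all members, 41 of 43 passed the filter on low counts. Of these, edgeR's quasi-likelihood test called 12 higher and 2 lower with the adjusted p below 0.05, which is 29.3% and 4.88% of those tested. Of all 16738 genes tested, 13.6% were higher, 12.4% were lower and 26.0% were called in either direction. Among the 8022 genes within the members' range of abundance, 16.4% were higher and 18.8% lower. The median log2 fold change was 0.05 over the members and 0.00 over all genes. The sizes were small: the median absolute log2 change was 0.08 over members and 0.16 over all genes, or 0.11 over the 8022 genes within the members' range of abundance.

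**Figure D1:**
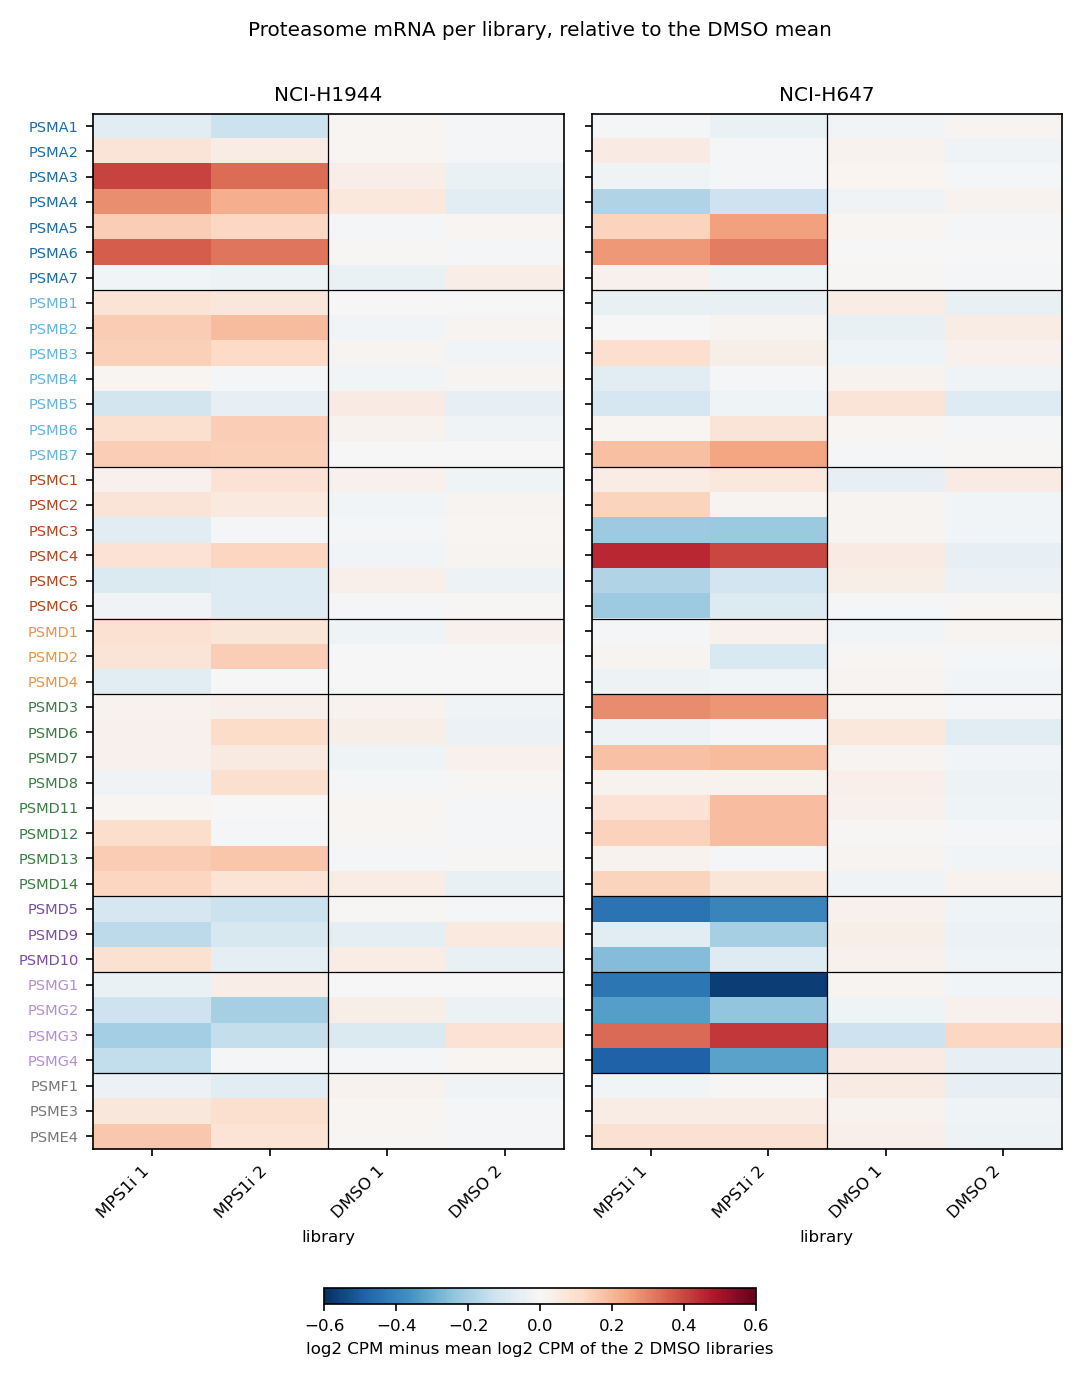
Log2 CPM of each tested member minus the mean log2 CPM of the line's 2 DMSO libraries, by role (rows) and library (columns, MPS1i left of DMSO in each line); red is above and blue below that mean. PSMA3 and PSMA6 stand out in NCI-H1944, and PSMC4, PSMG1 and PSMD5 in NCI-H647.

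The alpha subunits form the outer rings of the core and its gate. PSMA3 was measured at 109 and 104 CPM in MPS1i libraries of NCI-H1944, against 84.7 and 80.1 CPM in DMSO libraries. Both MPS1i libraries lay above both DMSO libraries, and the log2 fold change was 0.38 ± 0.04 (SE of the fit, as for all changes here; adjusted p = 4.94e-06). PSMA6 had 187 and 182 CPM after MPS1i and 146 and 145 CPM after DMSO, a change of 0.34 ± 0.04 (adjusted p = 1.82e-06). PSMA4 had 143 and 137 CPM after MPS1i and 123 and 113 CPM after DMSO, a change of 0.25 ± 0.04 (adjusted p = 0.000348). The groups did not overlap for any of these 3 subunits, as was so for 61.0% of all genes tested in this line. PSMA5 rose less, with a log2 fold change of 0.13 ± 0.04 (adjusted p = 0.0125). PSMA1, PSMA2 and PSMA7 did not pass the test, with values of -0.09, 0.06 and -0.02. PSMA8, the alpha subunit of germ cells, had 0 counts in every library of both lines.

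Of the beta subunits that carry the active sites, PSMB7, with the trypsin-like site, rose, at 261 and 260 CPM after MPS1i and 236 and 235 CPM after DMSO. Its log2 fold change was 0.15 ± 0.03 (adjusted p = 0.00192). PSMB6, with the caspase-like site, had 115 and 119 CPM after MPS1i and 109 and 106 CPM after DMSO, a change of 0.12 ± 0.04 (adjusted p = 0.0328). PSMB5, with the chymotrypsin-like site, had 143 and 149 CPM after MPS1i and 160 and 149 CPM after DMSO. Its change of -0.08 ± 0.04 missed the threshold (adjusted p = 0.167), so PSMB5 did not share the call of the other active subunits. Among the structural beta subunits, PSMB2 had 156 and 160 CPM after MPS1i and 139 and 142 CPM after DMSO, and rose by 0.17 ± 0.04 on the log2 scale (adjusted p = 0.00172). PSMB3 rose by 0.13 ± 0.04 (adjusted p = 0.0237), and PSMB1 and PSMB4 had values of 0.08 and 0.00 without a call. PSMB11, the beta subunit of the thymic cortex, had 4 counts in 1 MPS1i library of NCI-H1944 and 0 elsewhere.

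In the regulatory particle the calls were few. PSMC4, a base ATPase, had 132 and 136 CPM after MPS1i and 123 and 126 CPM after DMSO in NCI-H1944, a log2 fold change of 0.11 ± 0.04 (adjusted p = 0.044). The other 5 ATPases ranged from -0.08 for PSMC5 to 0.07 for PSMC2 and did not pass. PSMD2, a scaffold that docks ubiquitin shuttles, rose by 0.11 ± 0.03 (adjusted p = 0.0211), and its base partners PSMD1 and PSMD4 had values of 0.08 and -0.02. In the lid, PSMD13 rose by 0.16 ± 0.05 (adjusted p = 0.0233), and the other 7 subunits had values between 0.00 and 0.10.

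The chaperones of NCI-H1944 had a median log2 fold change of -0.12. PSMG2, which pairs with PSMG1 to hold the growing alpha ring, had 41.4 and 39.3 CPM after MPS1i and 46.2 and 44.1 CPM after DMSO. It fell by 0.16 ± 0.05 on the log2 scale (adjusted p = 0.0399). PSMG3, which pairs with PSMG4 in the same task, had 45.8 and 47.8 CPM after MPS1i and 49.7 and 56.0 CPM after DMSO, and fell by 0.18 ± 0.06 (adjusted p = 0.035). Neither call survived the removal of certain libraries: PSMG2 had an adjusted p of 0.245 without DMSO replicate 1, and PSMG3 of 0.43 without DMSO replicate 2. PSMG1 and PSMG4 had values of 0.00 and -0.08. The base chaperones PSMD5, PSMD9 and PSMD10 had values of -0.12, -0.13 and 0.02, none past the threshold.

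Of the activators and the inhibitor, PSME4, a large nuclear cap of the core, had 96.4 and 91.2 CPM after MPS1i and 86.5 and 85.6 CPM after DMSO, and rose by 0.12 ± 0.04 (adjusted p = 0.0382). PSME3, a nuclear relative of the interferon-inducible activators, had 234 and 238 CPM after MPS1i and 225 and 221 CPM after DMSO, a change of 0.08 ± 0.03 that missed the threshold (adjusted p = 0.0926). PSMF1, an inhibitor of the core, had 81.3 and 79.3 CPM after MPS1i and 84.6 and 81.9 CPM after DMSO, a change of -0.05 ± 0.04 (adjusted p = 0.399). The groups did not overlap for PSME4, PSME3 and PSMF1, a state shared by 61.0% of all genes and not itself a call.

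Summed over the 14 core subunits, NCI-H1944 held 2150 and 2128 CPM after MPS1i, against 2004 and 1988 CPM after DMSO. The 17 subunits of base and lid held 1990 and 2022 CPM after MPS1i, against 1953 and 1948 CPM after DMSO. The 7 chaperones held 271 and 272 CPM after MPS1i, against 289 and 295 CPM after DMSO. Both MPS1i sums lay above both DMSO sums for the core and for base and lid, and below them for the chaperones. Groups were likewise apart for 61.0% of all single genes tested in this line, and 14 of the 17 base and lid subunits were not called. The calls for PSMA3, PSMA4, PSMA6, PSMB2 and PSMB7 held under all 9 alternatives. The other 9 were lost under at least 1, with highest adjusted p from 0.116 for PSMA5 to 0.43 for PSMG3. Without DMSO replicate 1, and also without DMSO replicate 2, PSMA5, PSMB3, PSMB6, PSMC4, PSMD2, PSMD13 and PSME4 lost their calls, which left 5 of the 12 higher ones. Without MPS1i replicate 1 the calls lost were those of PSMB3, PSMC4, PSMD13, PSME4 and PSMG3, and without MPS1i replicate 2 those of PSMB6, PSMC4, PSMD2, PSMD13, PSMG2 and PSMG3. The highest adjusted p was 0.315 for PSMC4, 0.26 for PSMB6, 0.238 for PSME4, 0.127 for PSMD13 and 0.122 for PSMD2.

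In NCI-H647 the members moved in both directions. Of the lid subunits 5 of 8 were higher, with a median log2 fold change of 0.12. Of the chaperones 5 of 7 were lower, with a median of -0.28. In DESeq2 the calls in these groups held only for PSMD3 of the lid and for the chaperones PSMD5 and PSMG1. DESeq2 also called fewer of all genes in this line, 2122 higher and 2573 lower of 15685. The 14 core subunits had 3 higher and 1 lower. Of the 6 base ATPases, PSMC4 rose and PSMC3, PSMC5 and PSMC6 fell. Over all members 41 of 43 were tested, 10 were higher and 9 lower, 24.4% and 22.0%. Of all 15049 genes tested, 27.3% were higher, 27.0% were lower and 54.4% were called in either direction. Among the 9505 genes within the members' range of abundance, 31.1% were higher and 34.0% lower. The members' totals thus lay near or under both backgrounds. The median log2 fold change was 0.00 over members and 0.01 over all genes. The median absolute log2 change was 0.09 over members, against 0.30 over all genes and 0.26 over the 9505 genes within the members' range of abundance.

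**Figure D2:**
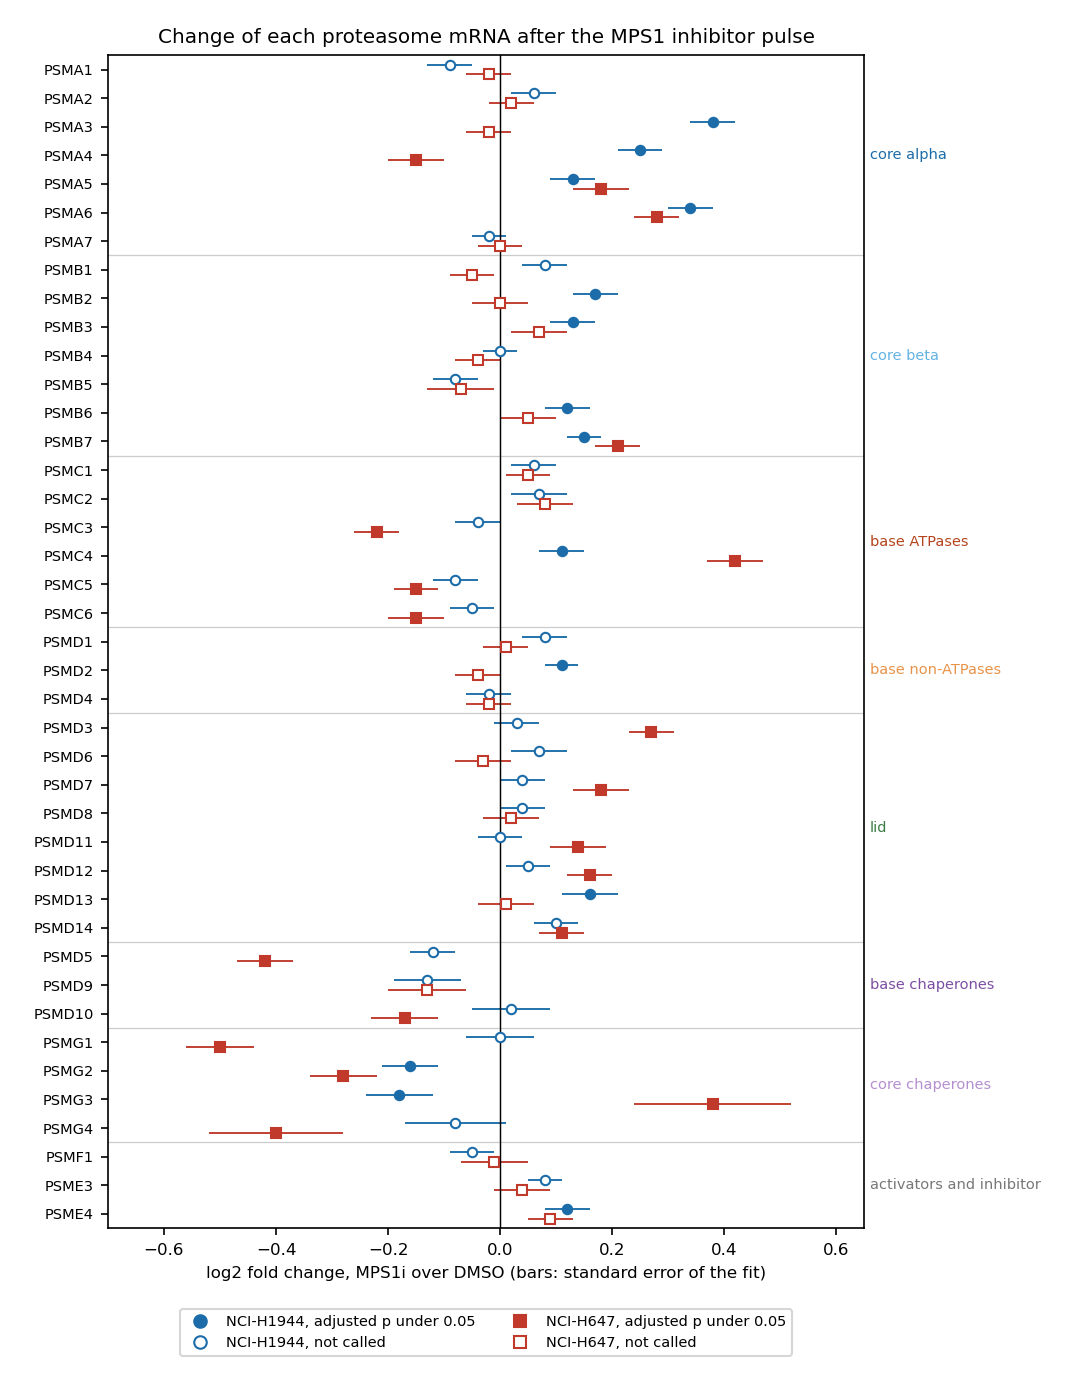
Log2 fold change of MPS1i over DMSO (horizontal axis) for each tested member (rows, by role) in each line, with bars of 1 SE and filled points for adjusted p under 0.05. In NCI-H1944 the core subunits lie mostly right of 0; in NCI-H647, 7 of 8 lid subunits lie right of 0 and the chaperones, apart from PSMG3, left of it.

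The lid carries the enzyme that removes ubiquitin chains. PSMD3, a scaffold of the lid, had 158 and 156 CPM after MPS1i in NCI-H647, against 131 and 129 CPM after DMSO. The groups did not overlap, as for 76.3% of all genes tested in this line, and the log2 fold change was 0.27 ± 0.04 (adjusted p = 8.92e-05). PSMD14, the deubiquitinase itself, had 199 and 191 CPM after MPS1i and 179 and 184 CPM after DMSO, and rose by 0.11 ± 0.04 (adjusted p = 0.0428). PSMD7, its partner in the lid, rose by 0.18 ± 0.05 (adjusted p = 0.00501). PSMD12 and PSMD11, further scaffold subunits, rose by 0.16 ± 0.04 and 0.14 ± 0.05 (adjusted p = 0.00394 and 0.0434). PSMD6, PSMD8 and PSMD13 had values of -0.03, 0.02 and 0.01. Of the 5 calls only that for PSMD3 held under every alternative. In DESeq2 the adjusted p was 0.122 for PSMD7, 0.35 for PSMD11, 0.0791 for PSMD12 and 0.338 for PSMD14. Without MPS1i replicate 2 the log2 fold change was 0.08 for PSMD11, 0.13 for PSMD12 and 0.12 for PSMD14.

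PSMC4 showed the largest rise of any member in NCI-H647. It had 177 and 171 CPM after MPS1i, against 134 and 125 CPM after DMSO, a change of 0.42 ± 0.05 on the log2 scale (adjusted p = 2.14e-06). No other ATPase was called higher. PSMC3 had 210 and 209 CPM after MPS1i and 247 and 241 CPM after DMSO, and fell by 0.22 ± 0.04 (adjusted p = 0.000149). PSMC5 had 212 and 222 CPM after MPS1i and 246 and 235 CPM after DMSO, and fell by 0.15 ± 0.04 (adjusted p = 0.00708). PSMC6 fell by 0.15 ± 0.05 (adjusted p = 0.0229), and PSMC1 and PSMC2 had values of 0.05 and 0.08. The calls for PSMC5 and PSMC6 were lost in edgeR with total-count scaling (adjusted p = 0.0553 and 0.11), and that for PSMC6 also in DESeq2 (adjusted p = 0.0987). Both were lost without MPS1i replicate 1, with changes of -0.12 and -0.10. The base subunits PSMD1, PSMD2 and PSMD4 lay between -0.04 and 0.01.

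In the core of NCI-H647, PSMA6 had 258 and 267 CPM after MPS1i, against 216 and 215 CPM after DMSO, and rose by 0.28 ± 0.04 (adjusted p = 1.35e-05). PSMB7 had 156 and 162 CPM after MPS1i and 137 and 138 CPM after DMSO, and rose by 0.21 ± 0.04 (adjusted p = 0.000864). PSMA5 rose by 0.18 ± 0.05 (adjusted p = 0.00378). Its call was lost in DESeq2 (adjusted p = 0.0583) and without MPS1i replicate 2, where the change was 0.12. PSMA4 had 119 and 124 CPM after MPS1i and 133 and 137 CPM after DMSO, and fell by 0.15 ± 0.05 (adjusted p = 0.0112). The PSMA4 call was lost in DESeq2 (adjusted p = 0.0617) and in edgeR with total-count scaling (adjusted p = 0.0708). It was also lost without MPS1i replicate 1, where the change was -0.13. PSMB6 had 126 and 132 CPM after MPS1i and 126 and 124 CPM after DMSO, a change of 0.05 ± 0.05 without a call. PSMB5 had 47.3 and 49.9 CPM after MPS1i and 53.6 and 48.1 CPM after DMSO, overlapping groups and a change of -0.07 ± 0.06 without a call. PSMA3, which rose most in NCI-H1944, had 204 and 206 CPM after MPS1i and 209 and 205 CPM after DMSO here. The other core subunits tested lay between -0.05 for PSMB1 and 0.07 for PSMB3.

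The largest fall among the members was in the chaperone PSMG1. It had 53.7 and 49.1 CPM after MPS1i in NCI-H647, against 73.3 and 71.8 CPM after DMSO, and fell by 0.50 ± 0.06 on the log2 scale, or by 29.2% (adjusted p = 2.36e-06). Its partner PSMG2 had 29.6 and 31.6 CPM after MPS1i and 36.6 and 37.9 CPM after DMSO, and fell by 0.28 ± 0.06 (adjusted p = 0.000972). PSMD5, a chaperone of the base, had 51.1 and 52.8 CPM after MPS1i and 70.7 and 68.3 CPM after DMSO, and fell by 0.42 ± 0.05 (adjusted p = 6.84e-06). The groups of these 3 chaperones did not overlap, where 76.3% of all genes had groups apart. In DESeq2 the PSMG2 call was lost (adjusted p = 0.0766), as were those given below for PSMG4, PSMG3 and PSMD10 (0.196, 0.382 and 0.149). PSMG4 had 8.56 and 9.59 CPM after MPS1i and 12.4 and 11.6 CPM after DMSO, and fell by 0.40 ± 0.12 (adjusted p = 0.0106). Its partner PSMG3 had 8.35 and 8.85 CPM after MPS1i and 6.05 and 7.19 CPM after DMSO, and rose by 0.38 ± 0.14 (adjusted p = 0.0359). Both rest on low counts, at most 130 after MPS1i and 237 after DMSO in a library. The PSMG4 call ended without MPS1i replicate 1 (adjusted p = 0.0721), and that for PSMG3 without DMSO replicate 1 (adjusted p = 0.249). PSMD10, a base chaperone also known as gankyrin, fell by 0.17 ± 0.06 (adjusted p = 0.0307; 0.291 without MPS1i replicate 1), and PSMD9 had a value of -0.13 without a call.

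PSME4 had 211 and 211 CPM after MPS1i in NCI-H647, against 202 and 194 CPM after DMSO, a change of 0.09 ± 0.04 that missed the threshold (adjusted p = 0.0611). PSME3 had 63.9 and 64.0 CPM after MPS1i and 62.9 and 61.1 CPM after DMSO, and PSMF1 had 40.4 and 41.1 CPM after MPS1i and 42.3 and 39.5 CPM after DMSO. Neither was called. Summed over the 7 chaperones the level was 245 and 252 CPM after MPS1i, against 309 and 302 CPM after DMSO. Base and lid together held 2827 and 2822 CPM after MPS1i, against 2776 and 2743 CPM after DMSO, and the core 2170 and 2201 CPM after MPS1i, against 2130 and 2110 CPM after DMSO. The calls for PSMA6, PSMB7, PSMC3, PSMC4, PSMD3, PSMD5 and PSMG1 held under all 9 alternatives. When counts were scaled by library total alone, 12 members were higher and 5 lower in NCI-H647, and 10 higher and 4 lower in NCI-H1944. Under that scaling the medians of lid and chaperones in NCI-H647 were 0.17 and -0.23, that of the core was 0.05, against 0.00 with TMM factors, and that of the base 0.03, against -0.02 with TMM factors. Without MPS1i replicate 1, PSMA4, PSMC5, PSMC6, PSMD10 and PSMG4 lost their calls, which left 4 of the 9 lower ones, and so did PSMD14 and PSMG3. Without MPS1i replicate 2, PSMA5, PSMD11, PSMD12, PSMD14 and PSMG3 lost theirs, which left 5 of the 10 higher ones. Without DMSO replicate 1 it was PSMD10, PSMD14 and PSMG3, and without DMSO replicate 2 PSMD11 (adjusted p = 0.124).

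**Figure D3:**
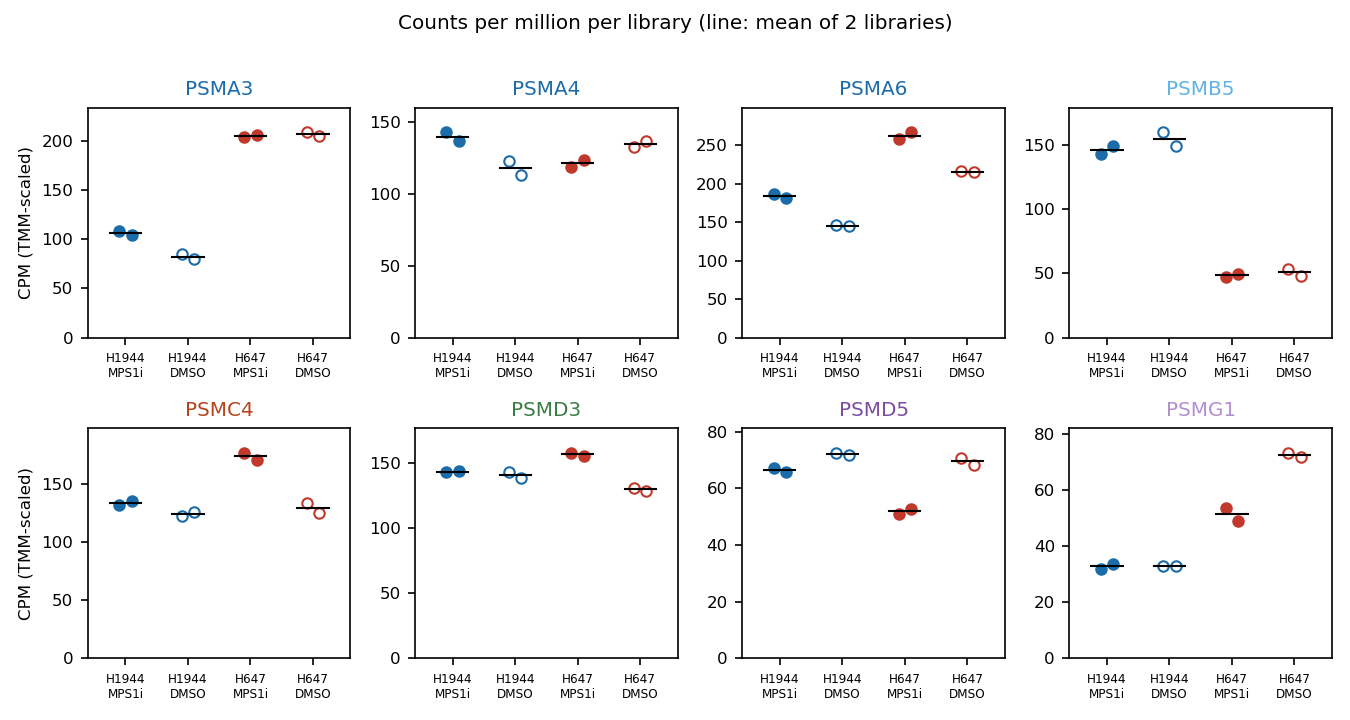
CPM per library (points) with the group mean (line) for 8 members, MPS1i filled and DMSO open, NCI-H1944 in blue and NCI-H647 in red; each axis starts at 0. PSMA6 is higher after MPS1i in both lines, PSMA3 and PSMA4 are higher in NCI-H1944, and PSMG1 and PSMD5 are lower in NCI-H647.

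The lines were then set against each other, with the change in NCI-H1944 minus the change in NCI-H647 tested as the interaction term of 1 fit to all 8 libraries, whose values can depart slightly from the difference of the 2 separate fits. The difference was positive for 8 of 41 members and negative for 3. Of all 12887 genes tested, 22.7% were positive, 17.4% negative and 40.1% either. A positive difference can be a rise in NCI-H1944 or a fall in NCI-H647: PSMG1, PSMD5 and PSMC3 had log2 fold changes of 0.00, -0.12 and -0.04 in NCI-H1944 and fell by 0.50, 0.42 and 0.22 in NCI-H647. PSMA3 differed by 0.42 ± 0.05 (adjusted p = 1.27e-06) and PSMA4 by 0.43 ± 0.06 (adjusted p = 4.45e-06). PSMG1, which in NCI-H1944 had 31.9 and 33.7 CPM after MPS1i and 32.8 CPM in each DMSO library, differed by 0.52 ± 0.09 (adjusted p = 4.65e-05). PSMC4 rose in both lines, and less in NCI-H1944, by a difference of -0.29 ± 0.05 (adjusted p = 0.00018). PSMD3 differed by -0.22 ± 0.05 (adjusted p = 0.00101): in NCI-H1944 it had 143 and 144 CPM after MPS1i and 143 and 139 CPM after DMSO. PSMD5 differed by 0.33 ± 0.07 and PSMC3 by 0.21 ± 0.05 (adjusted p = 0.0012 and 0.00149). These 7 held under all 13 alternatives. PSMB2, PSMD2, PSMB1 and PSMG3 differed by 0.20, 0.17, 0.15 and -0.54. They kept their calls under 12, 9, 4 and 12 of the 13. The PSMB1 call was lost with RLE size factors, total-count scaling and DESeq2 (adjusted p = 0.055, 0.311 and 0.0645), among others. Without DMSO replicate 1 of NCI-H647 the difference was 0.09 for PSMB1, 0.15 for PSMD2 and -0.42 for PSMG3. Without MPS1i replicate 2 of NCI-H647 it was 0.12 for PSMD2.

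The balance of these differences depended on scaling. With counts scaled by library total alone, the difference was positive for 5 members and negative for 8, and over all genes positive for 2089 and negative for 3015, against 2926 and 2240 with TMM factors. With RLE size factors the members' counts were 7 and 4, and over all genes 2632 and 2473.

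Few members were called in the same direction in both lines, and the share was near that of all genes for rises. PSMA5, PSMA6, PSMB7 and PSMC4 were higher in both lines, 4 of 41, where 9.47% of all genes were. PSMG2 was lower in both, where 9.75% of all genes were. PSMA4 was higher in NCI-H1944 and lower in NCI-H647, as were 1.78% of all genes, and PSMG3 was lower in NCI-H1944 and higher in NCI-H647, as were 1.33%. Several of these calls were unstable. In NCI-H1944 the call held under 3 of 9 alternatives for PSMC4, 5 for PSMG2 and for PSMG3, and 7 for PSMA5. In NCI-H647 it held under 4 of 9 for PSMG3, 6 for PSMA4, 7 for PSMA5 and 8 for PSMG2. A further 15 members were called in neither line. PSMA6 rose in both, and its difference between lines of 0.08 ± 0.05 missed the threshold (adjusted p = 0.194). Across the 41 members the log2 fold changes of the lines had a Pearson correlation of 0.35 and a Spearman correlation of 0.44, given as a description since members of a line share their libraries.

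**Figure D4:**
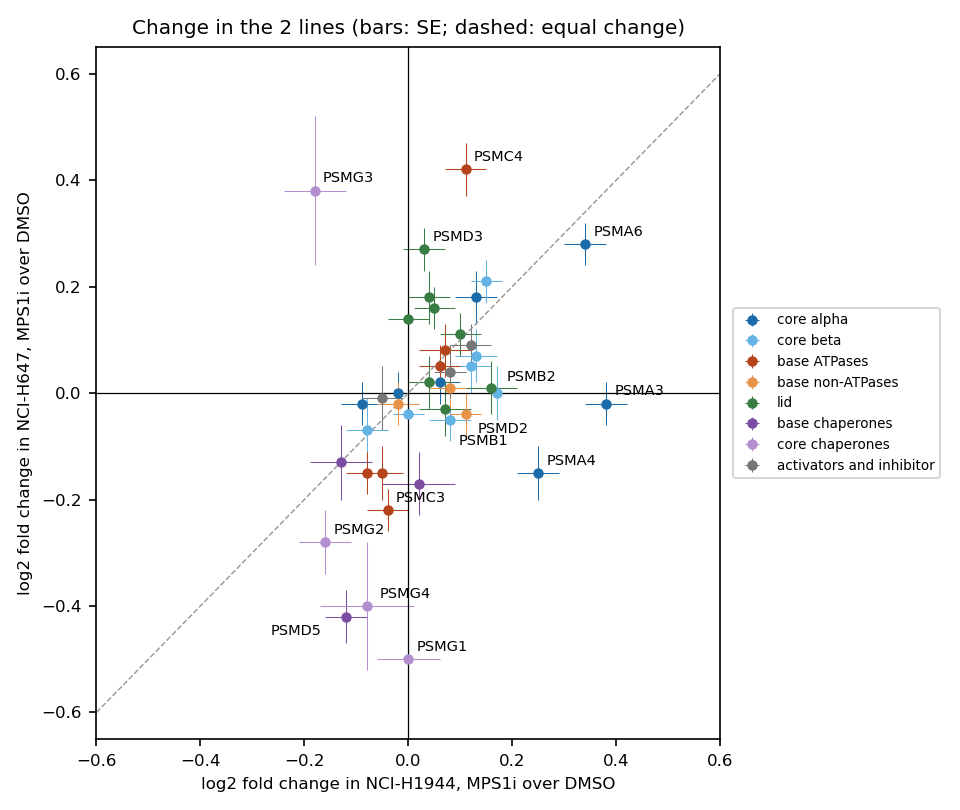
Log2 fold change, MPS1i over DMSO, in NCI-H1944 (horizontal) and NCI-H647 (vertical), for the 41 tested members coloured by role, with bars of 1 SE; the dashed line marks equal change. PSMA6 lies near the dashed line, PSMA3 and PSMA4 lie to its lower right, and PSMC4, PSMD3 and PSMG3 above it.

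Levels between genes were compared per length, as CPM divided by exon length in kilobases (RPKM). After DMSO the 14 core subunits of NCI-H1944 had a median of 103 RPKM, with PSMA5 lowest at 24.7 and PSMB7 highest at 240, and those of NCI-H647 had a median of 112, with PSMA4 lowest at 28.8 and PSMB1 highest at 221. Base and lid had a median of 41.4 RPKM in NCI-H1944 and 56.1 in NCI-H647. Chaperones, activators and the inhibitor had medians of 18.7 and 16.3 RPKM in these lines, with PSMG4 lowest at 2.50 and 2.06. The exon length is the union over transcripts, so a gene with a long and rarely used exon has a low RPKM.

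The interferon-inducible counterparts, 3 catalytic subunits and 2 activators, had a median log2 fold change of 0.97 in NCI-H1944 and 0.38 in NCI-H647, where the members had 0.05 and 0.00. All 5 genes of that list rose in NCI-H1944, where 13.6% of all genes were higher, and 4 of 5 in NCI-H647, where 27.3% were. PSMB9 had 34.3 and 40.8 CPM after MPS1i and 4.55 and 5.16 CPM after DMSO in NCI-H1944, a log2 fold change of 2.95 ± 0.11 (adjusted p = 1.77e-12), and 18.0 and 17.0 CPM after MPS1i, against 7.82 and 7.02 CPM after DMSO, in NCI-H647, a change of 1.24 ± 0.11. PSMB8 rose by 1.43 ± 0.04 in NCI-H1944 and 0.59 ± 0.06 in NCI-H647. PSMB10 rose by 0.76 ± 0.09 in NCI-H1944 and had a value of 0.18 ± 0.14 without a call in NCI-H647. The activators PSME1 and PSME2 rose by 0.71 ± 0.04 and 0.97 ± 0.04 in NCI-H1944, and by 0.38 ± 0.06 and 0.34 ± 0.05 in NCI-H647.

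In RPKM, PSMB8 stood at 72.0% and 71.1% of PSMB5 in MPS1i libraries of NCI-H1944, against 24.5% and 25.6% in DMSO libraries. In NCI-H647 it stood at 90.7% and 82.6% after MPS1i, against 50.2% and 60.2% after DMSO. The level of PSMB8 itself was lower in NCI-H647, at a mean of 28.7 RPKM after MPS1i and 19.1 after DMSO, against 71.4 and 26.4 in NCI-H1944. PSMB5 was lower there too, at 33.2 and 34.7 RPKM, against 99.8 and 106 in NCI-H1944. PSMB9 stood at 28.2% and 32.4% of PSMB6 after MPS1i and 3.93% and 4.60% after DMSO in NCI-H1944. In NCI-H647 PSMB9 stood at 13.5% and 12.2% of PSMB6 after MPS1i and 5.87% and 5.37% after DMSO. PSMB10 stood at 7.27% and 7.52% of PSMB7 after MPS1i and 4.44% and 5.24% after DMSO in NCI-H1944, and in NCI-H647 at a mean of 4.16% after MPS1i and 4.23% after DMSO. The groups overlapped for PSMB10 over PSMB7 in NCI-H647 and for no other of these pairs. These are ratios of messages and say nothing of the subunits in assembled particles.

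**Figure D5:**
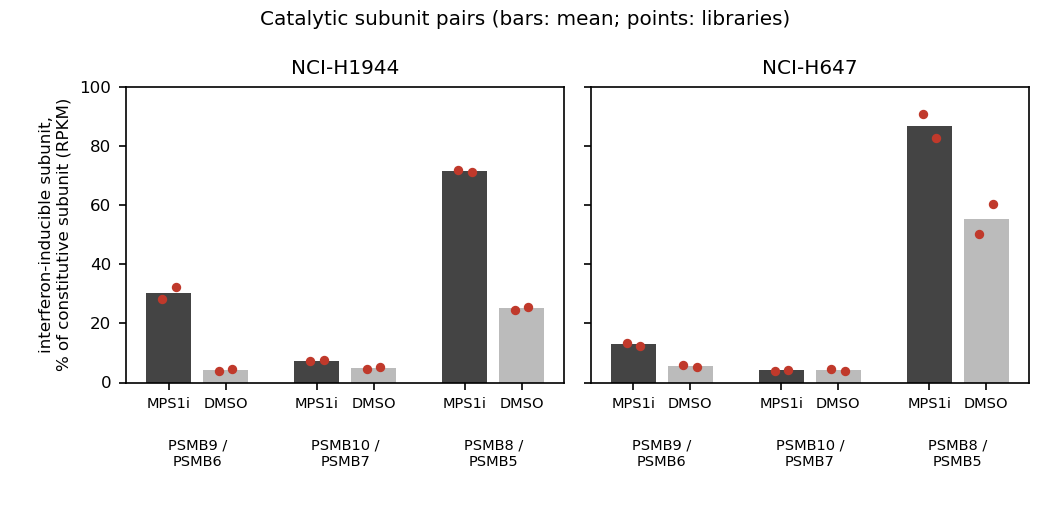
Level of each interferon-inducible catalytic subunit as a percentage of the constitutive subunit it can replace, in RPKM, for MPS1i (dark) and DMSO (light) in each line; bars are means and points the libraries. PSMB8 over PSMB5 reaches a mean of 71.6% after MPS1i and 25.1% after DMSO in NCI-H1944, and 86.7% after MPS1i and 55.2% after DMSO in NCI-H647. The RPKM of PSMB8 and of PSMB5 are both lower in NCI-H647 than in NCI-H1944.

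Subunits and factors outside the name pattern were measured beside the members. Unlike the members' calls, those of the genes in this and the other lists were not checked under the alternatives. POMP, which guides assembly of the beta rings, had 86.2 and 84.3 CPM after MPS1i and 67.3 and 68.2 CPM after DMSO in NCI-H1944, and rose by 0.33 ± 0.04 (adjusted p = 1.60e-05). In NCI-H647 it had 131 and 137 CPM after MPS1i and 119 and 118 CPM after DMSO, and rose by 0.18 ± 0.05 (adjusted p = 0.00372). ADRM1 had 79.3 and 74.2 CPM after MPS1i in NCI-H647, against 53.5 and 54.6 CPM after DMSO, and rose by 0.51 ± 0.05 (adjusted p = 1.27e-06). In NCI-H1944 it rose by 0.15 ± 0.04 (adjusted p = 0.00962). SEM1 had values of -0.08 and 0.05 in NCI-H1944 and NCI-H647 without a call. Of the 11 genes in this list, 2 (18.2%) were higher in NCI-H1944, where 13.6% of all genes were. In NCI-H647, 4 were higher and 4 lower (36.4% each), where 27.3% and 27.0% of all genes were. The median log2 fold change over the list was -0.04 for NCI-H1944 and 0.00 for NCI-H647. The lower ones were UCHL5 and USP14, deubiquitinases that work at the proteasome, PAAF1, a chaperone of the base, and ECPAS, a proteasome adaptor. UCHL5 had 92.1 and 89.2 CPM after MPS1i, against 124 and 129 CPM after DMSO, and fell by 0.48 ± 0.05 (adjusted p = 7.41e-07), and ECPAS fell by 0.42 ± 0.04 (adjusted p = 2.32e-07).

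NFE2L1 encodes the transcription factor that raises proteasome genes when proteasome activity falls, and DDI2, NGLY1, VCP and others release it from the endoplasmic reticulum. Of 11 genes of that route, 8 (72.7%) were higher in NCI-H647, where 27.3% of all genes were. The median log2 fold change was 0.42 beside 0.01 over all genes. The 8 were NFE2L1, DDI2, UFD1, NPLOC4, SYVN1, MAFF, MAFG and MAFK. NGLY1, VCP and SEL1L were not called there, with values of -0.09, 0.04 and 0.07. In NCI-H1944, 3 (27.3%) were higher and 1 (9.09%) lower, where 13.6% and 12.4% of all genes were, and the median was 0.04 beside 0.00. NFE2L1 itself had 614 and 593 CPM after MPS1i in NCI-H647, against 399 and 407 CPM after DMSO, and rose by 0.58 ± 0.03 (adjusted p = 1.14e-09). In NCI-H1944 it had 463 and 472 CPM after MPS1i and 473 and 468 CPM after DMSO, overlapping groups and a value of -0.01 ± 0.03. MAFF and MAFK, small partners of this family of factors, rose by 1.89 ± 0.06 and 1.81 ± 0.06 in NCI-H647 (adjusted p = 2.18e-12 and 2.46e-12), and by 0.51 ± 0.05 and 0.10 ± 0.03 in NCI-H1944 (adjusted p = 2.01e-06 and 0.0231). The change in NCI-H1944 minus that in NCI-H647 was -0.57 ± 0.04 for NFE2L1 (adjusted p = 3.13e-10), -1.36 ± 0.10 for MAFF and -1.69 ± 0.07 for MAFK.

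The COP9 signalosome is a relative of the lid that acts on ubiquitin ligases. Of its 9 genes 5 (55.6%) fell in NCI-H647, where 27.0% of all genes were lower, and 2 (22.2%) in NCI-H1944, where 12.4% were. The median log2 fold change was -0.25 for NCI-H647 and -0.08 for NCI-H1944. COPS6 fell by 0.41 ± 0.04 (adjusted p = 1.16e-06) and COPS4 by 0.37 ± 0.05 (adjusted p = 4.42e-05) in NCI-H647. COPS3 and COPS5 fell by 0.22 ± 0.05 and 0.14 ± 0.05 in NCI-H1944 (adjusted p = 0.00202 and 0.0388). Among 11 genes of ubiquitin supply and shuttling, 3 (27.3%) were higher and 2 (18.2%) lower in NCI-H1944, where 13.6% and 12.4% of all genes were. In NCI-H647, 1 (9.09%) was higher and 4 (36.4%) lower, where 27.3% and 27.0% of all genes were. RPS27A, a fusion of ubiquitin with a ribosomal protein, fell by 0.17 ± 0.03 in NCI-H1944 (adjusted p = 0.000106) and by 0.39 ± 0.03 in NCI-H647 (adjusted p = 4.03e-08).

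Over the 8 libraries, with each line's mean removed, the members whose log2 CPM was most like that of PSMB5 were PSMF1, PSMC5 and PSMD4, with Pearson correlations of 0.83, 0.80 and 0.63, a description over points that share libraries and depth. None of the 4 rose in either line.

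Some members share ground with other genes, and whether reads were assigned by strand is not given in the sources used here. By the NCI-H647 coordinates, PSMG2 overlaps CEP76 and SPIRE1 on the other strand, PSMC5 overlaps FTSJ3, PSME3 overlaps BECN1, PSMD5 overlaps the pseudogene CUTALP, PSMG4 overlaps TUBB2B on the other strand, PSMC2 overlaps PMPCB on its own strand and DNAJC2 on the other, and PSMA2 and PSMA6 each overlap a coding locus listed without a name on their own strand. The counts that follow are raw, from NCI-H647 libraries that were smaller after MPS1i than after DMSO. A lower raw count after MPS1i is therefore not by itself a fall. PSMG3 overlaps its antisense transcript, which had 33 and 21 counts after MPS1i and 22 and 32 after DMSO, beside 115 and 120 after MPS1i and 116 and 122 after DMSO for PSMG3. TUBB2B had 79 and 63 counts after MPS1i and 66 and 62 after DMSO, beside 118 and 130 after MPS1i and 237 and 196 after DMSO for PSMG4. The locus over PSMA6 had 370 and 318 counts after MPS1i and 595 and 545 after DMSO, against 3556 and 3613 after MPS1i and 4141 and 3642 after DMSO for PSMA6. CUTALP had 279 and 256 counts after MPS1i and 412 and 403 after DMSO, and PSMD5 had 704 and 715 after MPS1i and 1356 and 1158 after DMSO. CEP76 had 179 and 178 counts after MPS1i and 279 and 261 after DMSO. SPIRE1, which shares 65 bases with PSMG2, had 837 and 837 after MPS1i and 980 and 906 after DMSO. PSMG2 had 408 and 428 after MPS1i and 702 and 642 after DMSO. Proteasome pseudogenes, 42 in each line's list, held counts equal to 0.176% of the members' counts in NCI-H1944 and 0.197% in NCI-H647.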

How the data were processed

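RNA was measured in 8 libraries. The authors deposited raw read counts for each gene, as whole numbers and separately for each line. STAR, HISAT2, featureCounts, StringTie, cutadapt, Trimmomatic and Trim Galore appear in the submitters' processing notes, as does GRCh38. Which of these made which table, with what version, annotation and strand setting, is not given in the sources used here, so overlapping genes and near-identical copies are uncertain.

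Members were found by symbol, and the row with the highest count stood for a symbol. The members, gene lists and tests were chosen with earlier results of these data known. Within each line, genes were filtered with filterByExpr (edgeR 4.0.16 in R 4.3.3, minimum count 10, minimum total 15), scaled by TMM factors and tested with edgeR's quasi-likelihood F test, MPS1i against DMSO. Benjamini-Hochberg adjustment ran over all genes tested, with a threshold of 0.05. The SE of a log2 fold change was derived from it and the F statistic. Lines were compared through the interaction term in a joint model of the 12887 shared symbols that passed in both. RPKM used union exon lengths of the GENCODE 29 basic annotation. The biological coefficient of variation was 3.99% in NCI-H1944 and 3.54% in NCI-H647.

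Alternatives were RLE size factors, total-count scaling, no low-count filter, DESeq2 1.42.0, a replicate block and leaving out each library. Calls of single genes were followed under them for the members only, not for the genes of the other lists. Values per library are given for PSMB5, PSMB6, PSMB7, PSME3, PSME4 and PSMF1, for the 4 called members with the largest rise and the 4 with the largest fall in each line, and for the 4 with the smallest interaction p. Outside this rule they are also given for PSMC3, PSMC5 and PSMD14 in NCI-H647. Other genes came from named lists: those of the interferon-inducible subunits, POMP, ADRM1, SEM1 and NFE2L1 always, and up to 2 per list and line by smallest adjusted p. Some genes of these lists are not reported here. PSMA8 and PSMB11 did not pass the filter and were not tested.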

Additional observations from a re-analysis of the deposited data

Results flagged for a closer look

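The change after MPS1i differed between NCI-H1944 and NCI-H647 for 11 members by the interaction test (difference of log2 fold changes, NCI-H1944 minus NCI-H647, edgeR's quasi-likelihood test). The signed difference was positive for PSMA3 (0.42), PSMA4 (0.43), PSMG1 (0.52), PSMD5 (0.33), PSMC3 (0.21), PSMB2 (0.20), PSMD2 (0.17) and PSMB1 (0.15), and negative for PSMC4 (-0.29), PSMD3 (-0.22) and PSMG3 (-0.54). For PSMG1, PSMD5 and PSMC3 the positive difference came with log2 fold changes of 0.00, -0.12 and -0.04 in NCI-H1944 and -0.50, -0.42 and -0.22 in NCI-H647. The PSMB1 call held under 4 of 13 alternatives and the PSMD2 call under 9. Cell line, library kit and count table differ together and cannot be told apart.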

How the results depend on the processing

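In NCI-H1944, 12 members were higher and 2 lower. Higher calls numbered 6 with no low-count filter and from 5 to 9 when 1 library was left out. Lower calls numbered 4 with total-count scaling, 0 with no filter (edgeR, with 4 at an unadjusted p under 0.05), 1 in DESeq2, 4 with the replicate block, and 0 to 2 when 1 library was left out, with 0 without MPS1i replicate 2 (3 at an unadjusted p under 0.05). In NCI-H647, 10 members were higher and 9 lower. Higher calls numbered 4 in DESeq2 and 5 to 9 when 1 library was left out. Lower calls numbered 5 with total-count scaling, 4 in DESeq2, and 4 to 9 when 1 library was left out. Between the lines (NCI-H1944 minus NCI-H647), 8 differences were positive and 3 negative, against 5 and 8 with total-count scaling. The causes of these shifts were not tested. Over single members, 88 calls were lost and 22 gained across alternatives, 1161 stayed on their side of the threshold, and no called change turned its direction. Where 1 library of a group was left, it was assumed to vary like the others.

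The labels do not say whether replicate numbers pair the samples. Deviations of libraries with the same number had a correlation of 0.044 in NCI-H1944 and 0.00257 in NCI-H647 across genes. With 2 libraries per group, noise of single libraries also lowers this value, so it does not decide whether they pair. With the replicate block, 13 members were higher and 4 lower in NCI-H1944, 10 and 9 in NCI-H647, and 8 differences between lines were positive and 4 negative. The 2 libraries per group and the smaller totals of NCI-H647 limit what can be said of low members such as PSMG3 and PSMG4.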
